A study of Homo sapiens with 12 samples.

Results

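RAB GTPase genes were taken as the protein-coding genes whose symbol is RAB followed directly by a number. The rule found 74 of 20052 protein-coding genes in the RefSeq table for GRCh38.p14, of which 64 encode RAB GTPases. The other 10 encode proteins that bind or regulate them (RAB11FIP1 to RAB11FIP5, RAB3GAP1, RAB3GAP2, RAB3IL1, RAB3IP and RAB5IF). The term regulators below stands for all 10, also for those that bind RAB proteins as effectors. A peak was counted for a RAB gene when its midpoint lay in the gene span and its strand was that of the gene. The study pulled down RNA fragments carrying N4-acetylcytidine (ac4C) with an antibody and sequenced them (acRIP-seq) in SW620 cells, an established line from human colorectal cancer, grown in L15 medium with fetal bovine serum. NAT10 is the acetyltransferase that writes ac4C, and the comparison asks how the peak lists differ when it is depleted. The control group (shControl, genotype WT) and the knockdown group (shNAT10, genotype NAT10 knockdown) each had 3 immunoprecipitated libraries. According to the methods such lines carried a lentiviral shRNA, and which shRNA against NAT10 these libraries held and whether replicates were separate cultures is not given in the labels. The input libraries were not analysed here.

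RAB proteins are small GTPases that act as switches on the surface of membranes inside the cell. Exchange factors load them with GTP, which lets them bind effectors that move, tether or fuse vesicles, and GTPase-activating proteins turn them off. Each RAB marks its own set of membranes, such as the Golgi, early endosomes, recycling endosomes or lysosomes, and epithelial cells rely on several of them to deliver proteins to the right surface.

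Peaks numbered 18241, 22619 and 20063 in the control and 28752, 17877 and 19047 in the knockdown libraries, so the list of knockdown replicate 1 was the longest of the 6. The lists give no read counts, and sequencing depth is therefore unknown. Peaks within the NAT10 gene numbered 1, 0 and 2 in control and 2, 0 and 1 under knockdown, and peak numbers do not measure the amount of NAT10 mRNA. Of 9 markers of intestinal epithelium, 5 (EPCAM, CDH1, CDX2, KRT8 and VIL1) had peaks in all 6 libraries, while KRT18 and KRT20 had none. The leukocyte marker PTPRC and the endothelial marker PECAM1 had none, and the fibroblast marker COL1A1 had peaks in 3 libraries. A gene without a peak may carry little ac4C or little mRNA, which cannot be told apart in these lists.

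The sequences around 5 RAB gene starts are shown because peaks in RAB genes lay often at the start of the gene. RAB31, which takes part in transport between the trans-Golgi network and endosomes, is shown as the only RAB gene with peaks in every control and no knockdown library. RAB17 and RAB8A, which serve polarised and exocytic traffic, RAB32, which acts on lysosome-related organelles, and RAB8B, a close relative of RAB8A, had the longest stretches under a peak among the RAB genes covered in all 6 libraries. Each window runs from 250 bases before to 50 bases after the RefSeq start on GRCh38.p14, in the direction of the gene. Capitals mark bases that lay under a peak in at least 1 library.
RAB31, chr18:9708051-9708350, plus strand: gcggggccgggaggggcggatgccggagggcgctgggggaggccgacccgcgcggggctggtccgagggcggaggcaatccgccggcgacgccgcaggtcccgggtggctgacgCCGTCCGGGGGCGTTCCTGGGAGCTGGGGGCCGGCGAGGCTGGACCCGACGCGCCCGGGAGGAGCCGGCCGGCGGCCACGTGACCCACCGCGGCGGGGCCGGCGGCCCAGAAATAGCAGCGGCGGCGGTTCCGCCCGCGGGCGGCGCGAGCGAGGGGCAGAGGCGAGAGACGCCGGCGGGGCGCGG
RAB17, chr2:237590685-237590984, minus strand: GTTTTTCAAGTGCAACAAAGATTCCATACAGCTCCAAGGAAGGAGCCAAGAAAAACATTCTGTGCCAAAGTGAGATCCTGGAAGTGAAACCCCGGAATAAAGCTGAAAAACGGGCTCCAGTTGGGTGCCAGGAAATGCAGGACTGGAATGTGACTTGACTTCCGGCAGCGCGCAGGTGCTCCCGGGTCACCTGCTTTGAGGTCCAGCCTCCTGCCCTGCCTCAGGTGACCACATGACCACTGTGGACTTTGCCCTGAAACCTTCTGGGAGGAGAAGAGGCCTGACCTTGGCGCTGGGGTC
RAB8A, chr19:16111639-16111938, plus strand: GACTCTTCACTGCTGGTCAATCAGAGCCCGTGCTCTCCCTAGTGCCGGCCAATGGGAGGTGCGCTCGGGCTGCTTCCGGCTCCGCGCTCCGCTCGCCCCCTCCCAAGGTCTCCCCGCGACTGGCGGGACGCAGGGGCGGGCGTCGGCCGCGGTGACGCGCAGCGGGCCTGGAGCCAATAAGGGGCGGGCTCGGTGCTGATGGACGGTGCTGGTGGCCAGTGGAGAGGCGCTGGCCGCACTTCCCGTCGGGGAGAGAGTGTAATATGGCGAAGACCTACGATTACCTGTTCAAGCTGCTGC
RAB32, chr6:146543583-146543882, plus strand: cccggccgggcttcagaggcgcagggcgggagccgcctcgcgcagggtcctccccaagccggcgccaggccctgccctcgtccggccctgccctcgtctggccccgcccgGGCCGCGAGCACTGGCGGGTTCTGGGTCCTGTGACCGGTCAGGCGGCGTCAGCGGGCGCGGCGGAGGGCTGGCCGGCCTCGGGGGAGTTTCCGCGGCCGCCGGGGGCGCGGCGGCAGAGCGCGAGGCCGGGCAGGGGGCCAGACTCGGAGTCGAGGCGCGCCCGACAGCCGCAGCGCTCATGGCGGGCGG
RAB8B, chr15:63189356-63189655, plus strand: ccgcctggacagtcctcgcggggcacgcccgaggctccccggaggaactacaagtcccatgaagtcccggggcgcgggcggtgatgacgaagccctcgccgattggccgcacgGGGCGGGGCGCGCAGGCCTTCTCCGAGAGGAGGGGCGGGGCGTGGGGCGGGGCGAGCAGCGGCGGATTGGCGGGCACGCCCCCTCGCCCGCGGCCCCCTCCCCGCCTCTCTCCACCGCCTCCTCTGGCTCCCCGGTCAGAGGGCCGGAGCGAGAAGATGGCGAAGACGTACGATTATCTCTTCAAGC
The peak covered 186 bases of the RAB31 window, with a GC content of 82.8%, and all 300 bases of the RAB17 and RAB8A windows, with a GC content of 54.7% and 68.3%. It covered 190 bases in RAB32 and 187 in RAB8B. The RAB17 and RAB8A start peaks were present in all 6 libraries, but their midpoints lay before the gene span, so they are not among the peaks counted below.

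Of the 59 RAB genes with a start window in the RefSeq table, 31 had at least 50 bases of it under a peak. In 27 of these 31 (87.1%) the peak reached bases before the RefSeq start of the window. The share was 91.4% in the 5063 genes of the whole series with as much coverage. That start can lie inside the gene span used elsewhere here. The RAB11FIP3 window, chr16:474674-474973, lay inside the gene, whose span starts at 425649, and was covered in knockdown replicate 1 alone. The RAB5B peak lay wholly within its gene span, yet 67 bases counted as before the start. How many windows of all genes lay so was not counted. The covered bases of the RAB windows had a median GC content of 71.8%, against 68.6% in the 5063 genes. They ranged from 49.5%, in the RAB11FIP3 window, to 90.0%. The letters CNNCNNCNNCNN, a spacing of cytosines that has been linked to ac4C and that can overlap itself, were found on the given strand in 27 of the 31 RAB windows (87.1%) and in 90.8% of the 5063, and on either strand in 100% and 98.8%. In the windows of all 15841 genes, covered or not, the shares were 83.4% and 95.0%. Within the covered bases alone they were found in 16 of the 31 RAB windows (51.6%) and in 64.3% of the 5063. The median covered length was 86 bases in the RAB windows and 106 bases in all genes, and its part in the last difference was not tested.

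Most RAB genes had at least 1 ac4C peak. Peaks were found in 63 of the 74 RAB genes (85.1%) and in 60.6% of all protein-coding genes. They were present in all 6 libraries in 34 RAB genes (45.9%), against 29.5% of all protein-coding genes. Of the others, 6 had peaks in 5 libraries, 5 in 4, 2 in 3, 11 in 2 and 5 in 1 library. RAB genes had a median span of 35176 bases, against 24098 bases over all protein-coding genes. The 11 RAB genes without a counted peak were RAB2B, RAB3C, RAB6B, RAB9B, RAB19, RAB27B, RAB33A, RAB34, RAB38, RAB39A and RAB44. In RAB33A, 11 peaks lay in the gene span, all on the strand of AIFM1, whose span they share, and they were not counted.

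The 9 GTPases of the early endosome all had a peak, and 7 of them had peaks in all 6 libraries. RAB5A, RAB5B and RAB5C, which drive fusion of early endosomes, each had a start peak in all 6 libraries, as had RAB14, RAB21 and RAB22A. RAB5A and RAB5B had 1 peak in every library. RAB21, which binds integrins, had 2 in every library. RAB4B, a recycling GTPase, had 1, 2 and 1 peaks in control and 3, 1 and 2 under knockdown, and its peaks lay near the start in 3 libraries.

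All 7 GTPases of the recycling endosome had a peak, and 4 had peaks in all 6 libraries. RAB11A and RAB11B, the close relatives that define this compartment, differed in position. The RAB11A peak common to all libraries had its midpoint 49 bases from the gene start. RAB11B had 1 peak in each library, at chr19:8403413-8404434 near the gene end, at a median score percentile of 93.2. A score percentile gives the place of a peak among those of its own library, with 100 the highest and tied peaks sharing their mean place. The 93.2 of RAB11B lies in the range of peaks tied at a score of 3100. RAB15 had 1, 1 and 3 peaks in control and 3, 3 and 2 under knockdown, and the groups overlapped. RAB25, a GTPase of epithelial recycling endosomes, had 2 peaks in control replicate 1 and none elsewhere.

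Of the 19 GTPases of the ER and Golgi, 13 had a peak and 7 had peaks in all 6 libraries. RAB1A and RAB1B, which act in transport from the ER to the Golgi, differed in the position of their counted peaks. The RAB1A peak common to all libraries lay at the gene start and the counted RAB1B peak, 1 in each library, near the gene end. Both stood at a median score percentile of 93.0, in the range of peaks tied at a score of 3100. A peak at the start of RAB1B, within chr11:66268533-66268693, was present in 5 libraries, all but control replicate 3, but its midpoint lay before the gene span and it was not counted, as was the case for a peak of RAB41 in knockdown replicate 1. RAB43, which acts at the Golgi, had 2, 3 and 2 peaks in control and 3 in every knockdown library, so the groups overlapped at 3. RAB36 had 2, 3 and 1 peaks in control and 2, 2 and 1 under knockdown.

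Several close relatives differed in how many libraries had peaks. RAB2A had 2, 3 and 1 peaks in control and 2, 3 and 3 under knockdown, while RAB2B had none. RAB6A, which directs retrograde traffic through the Golgi, had 1 peak in each of the 6 libraries, and RAB6B had none. RAB9A had 1 in each library and RAB9B none. RAB7A, the GTPase of late endosomes and lysosomes, had 2, 3 and 2 in control and 2, 3 and 3 under knockdown, and RAB7B had 1, in knockdown replicate 3. These pairs were picked after their values were seen.

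Of the 12 GTPases of exocytosis and secretory vesicles, 10 had a peak and 3 (RAB8A, RAB8B and RAB10) had peaks in all 6 libraries. Of the RAB3 GTPases of regulated exocytosis, RAB3D had 0, 2 and 2 peaks in control and 3, 3 and 0 under knockdown, and RAB3A and RAB3B each had peaks in 2 libraries. Of the 8 GTPases of late endosomes, lysosomes and related organelles, 6 had a peak and 3 (RAB7A, RAB9A and RAB32) had peaks in all 6 libraries. RAB12 was the only one of the 5 GTPases with other roles to have peaks in all 6. Of the 4 RAB40 genes, which encode ubiquitin ligase adaptors, RAB40C had peaks in all 6.

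The regulators held more peaks than the GTPases. All 10 had a peak, 8 had peaks in all 6 libraries, and the median over genes of the mean peak number was 2.17, against 1.00 over the 53 GTPases with a peak. Their median span was also longer, at 66993 bases against 29979 bases. RAB11FIP3, which binds RAB11 and acts in cytokinesis, had the most peaks of any RAB gene, 7, 6 and 5 in control and 6, 7 and 6 under knockdown. Its relative RAB11FIP4 had 2, 3 and 5 in control and 4, 3 and 4 under knockdown. RAB3IL1, an exchange factor for RAB8 and RAB3 proteins, had 4, 2 and 3 in control and 4, 3 and 3 under knockdown. For these 3 genes the groups overlapped. RAB11FIP5, another RAB11 binding protein, had 0, 4 and 3 in control and 3, 2 and 4 under knockdown, so control replicate 1 stood apart with none.

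The number of peaks in RAB genes was 73, 86 and 77 in control and 99, 84 and 83 under knockdown. The control mean was 78.7 ± 6.66 (SD, n = 3) and the knockdown mean 88.7 ± 8.96 (SD, n = 3), and the groups overlapped. The difference, knockdown minus control, was 10.0 peaks and fell to 4.83 without knockdown replicate 1. As a share of all gene-assigned peaks of a library, RAB peaks made up 0.411%, 0.389% and 0.392% in control and 0.351%, 0.481% and 0.447% under knockdown. The number of RAB genes with a peak was 44, 47 and 51 in control and 52, 44 and 49 under knockdown, with means of 47.3 ± 3.51 and 48.3 ± 4.04 (SD, n = 3 each). This difference of 1.00 gene was within the spread between replicates and turned to -0.833 without knockdown replicate 1 and to -0.667 without control replicate 1.

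Among single genes, RAB31 alone showed peaks in 3 of 3 libraries of a group and in 0 of 3 of the opposite group. It had 1 peak in each control library and none in any knockdown library. The peak, chr18:9708165-9708444 on the plus strand, had the same start and end in all 3 control libraries, and its midpoint lay 3 bases from the gene start. Over the 12149 genes with a peak in any library, 0.337% had peaks in all control and no knockdown libraries and 0.362% the reverse, so 1 of the 63 RAB genes with a peak met a criterion that few genes of the series met. No RAB gene had peaks in all knockdown and no control libraries. The RAB31 peak stood at score percentiles of 47.6, 16.4 and 27.7 in the 3 control libraries, and the call was lost when only the 50% of peaks with the highest scores or the same number of peaks from each library were kept.

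In the exact permutation test of peak numbers between 3 control and 3 knockdown libraries, which cannot give a two-sided p under 0.1, RAB31 had p = 0.1 (adjusted p = 1 over 12149 genes). RAB40C, an adaptor that links a cullin ubiquitin ligase to its targets, also had p = 0.1 (exact permutation test, adjusted p = 1). Its peak numbers were 2, 2 and 2 in control and 3, 4 and 3 under knockdown, so all knockdown libraries lay above all control libraries. Peak numbers did not overlap between groups in 0.658% of the 12149 genes with control higher, where RAB31 was the RAB gene, and in 1.56% with knockdown higher, where RAB40C was. Each was 1 of the 63 RAB genes with a peak. For RAB40C this is close to the share over all genes, so it is not read as a trait of RAB genes. No gene of the series passed an adjusted p of 0.05 (0%) or an unadjusted p of 0.05 in this test. No region within RAB40C differed by 2 or more libraries between the groups, and its start peak, at score percentiles of 96.0 and 94.8 in control replicates 1 and 2, was missing in control replicate 3 and stood at 92.7, 99.7 and 93.2 in the knockdown libraries. All but the 99.7 are the places of peaks tied at a score of 3100, set by how many peaks tie in a library. They give no direction between the groups.

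**Figure D1:**
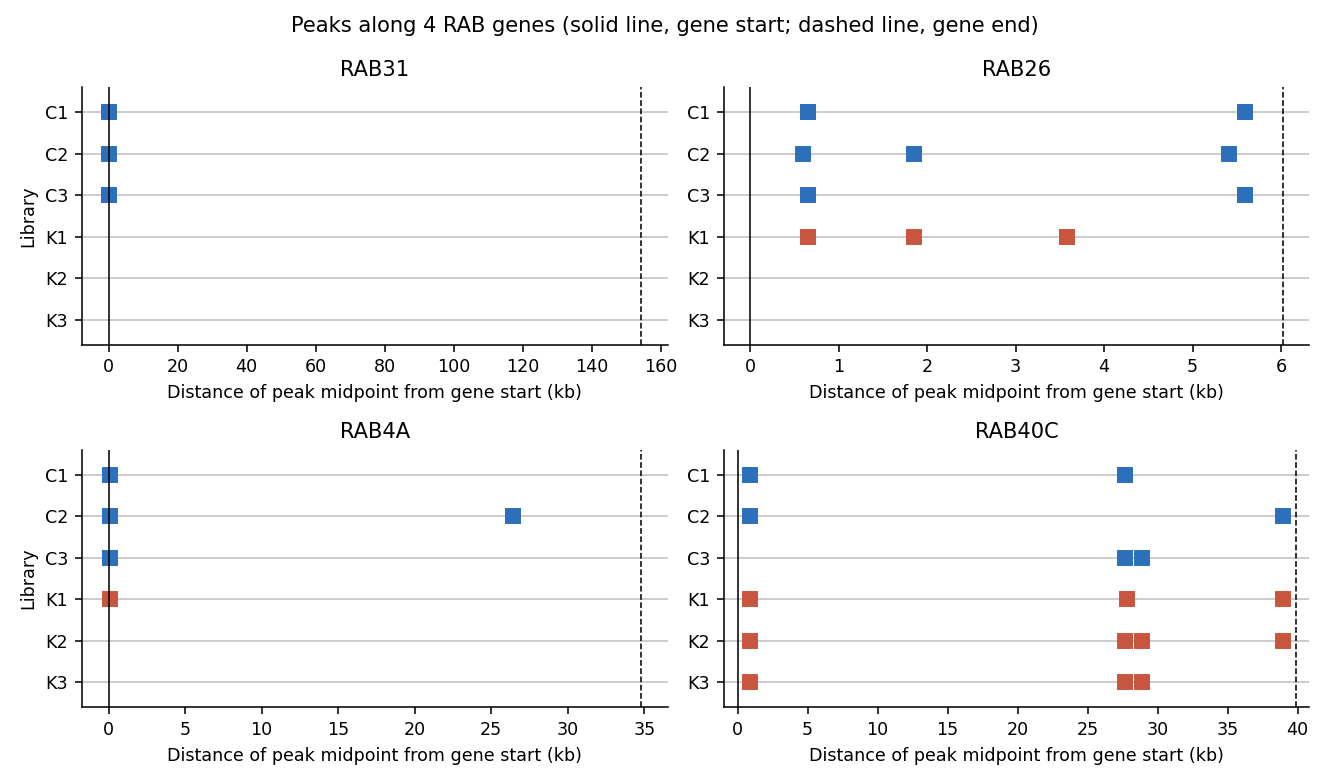
Peaks along RAB31, RAB26, RAB4A and RAB40C. The x axis gives the distance of each peak midpoint from the gene start in kilobases, rows are the 6 libraries (C, control in blue, K, knockdown in red), and squares are peaks. RAB31 has 1 square in each control row and none in a knockdown row, and RAB40C has 2 squares in each control row and 3, 4 and 3 in the knockdown rows.

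A difference of at least 2 libraries between the groups was seen in 8 RAB genes. RAB4A, RAB26, RAB31 and RAB40AL had peaks in more control libraries, 4 of 63 RAB genes with a peak, against 4.17% of all genes with a peak. RAB6C, RAB6D, RAB27A and RAB39B had peaks in more knockdown libraries, again 4 of 63, against 3.5%. These are few genes, and a difference from the shares over all genes was not tested.

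RAB4A, which returns receptors from early endosomes to the cell surface, had 1, 2 and 1 peaks in control and 1, 0 and 0 under knockdown. RAB26, a GTPase of secretory granules, had 2, 3 and 2 in control and 3, 0 and 0 under knockdown. In both genes knockdown replicate 1 had peaks, as the controls did, and knockdown replicates 2 and 3 had none, so without knockdown replicate 1 both would also have met the criterion of all control and no knockdown libraries. RAB40AL had 1, 0 and 1 in control libraries and none under knockdown, and would have met the same criterion without control replicate 2. Any gene with a difference of 2 libraries meets it once the library that breaks the split is left out. This outcome therefore adds nothing to that difference.

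RAB27A, which docks secretory granules and multivesicular bodies at the plasma membrane, had 0, 0 and 1 peaks in control and 2, 1 and 1 under knockdown. RAB39B, a GTPase best known from neurons, had none in control and 1, 0 and 1 under knockdown. RAB6C and RAB6D each had none in control and 0, 1 and 1 under knockdown. Without knockdown replicate 1 both would have met the reverse criterion of all knockdown and no control libraries. So would RAB39B without knockdown replicate 2 and RAB27A without control replicate 3. These outcomes too follow from the difference of 2 libraries alone, and the share of all genes with such an outcome was not counted. RAB6C and RAB6D are near-identical to each other and close to RAB6A, as RAB40AL is to RAB40A, so reads could be split or shared between copies and the peaks in these genes are uncertain.

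Merging peaks of the same strand that overlapped by at least 1 base in any library gave 41755 regions, of which 148 lay in RAB genes. Of these 148, 39 (26.4%) carried a peak in every library and 43 (29.1%) in a single one, against 22.0% and 38.7% of all regions. Of the 39, 30 (76.9%) had the same start and end in every library, as had 68.9% of all regions with a peak in all 6. The regions of RAB genes with a peak in all control and no knockdown libraries were 2, against 0.34% of all regions. They were the RAB31 start peak and chr16:2153319-2154165 on the plus strand, which reaches the last base of RAB26. The median midpoint of its peaks lay 423 bases before that end. In RAB26 the 3 control peaks of that region stood at score percentiles of 24.5, 9.28 and 93.2, the last being the place of peaks tied at a score of 3100. The reverse pattern occurred in 0 RAB regions, against 0.819% of all regions. When the same number of peaks was kept from each library neither region met the criterion.

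A difference of 2 or more libraries was seen in 17 of the 148 RAB regions. In 6 the peak was in more control libraries, against 4.07% of all regions, and these lay in RAB4A, RAB11FIP3, RAB26 (2 regions), RAB31 and RAB40B. In 11 it was in more knockdown libraries, against 5.92% of all regions, and these lay in RAB2A, RAB6C, RAB6D, RAB7A, RAB8A, RAB11FIP3, RAB11FIP4, RAB11FIP5, RAB15, RAB27A and RAB39B. RAB11FIP3 thus had regions of both kinds. Its region chr16:505524-505627 was listed in every control library and in knockdown replicate 2, at a percentile of 80.3 there and of 79.5, 79.9 and 93.2 in control, while chr16:491134-491268 had peaks in control replicate 1 and all 3 knockdown libraries. RAB7A and RAB2A each had, besides their start peak, a region with peaks in knockdown replicates 2 and 3 alone.

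Peaks in RAB genes lay near the gene start more often than those of other genes in all 6 libraries. Within 1000 bases of the start lay 43.8%, 41.9% and 44.2% of RAB peaks in control and 36.4%, 35.7% and 42.2% under knockdown. In all other protein-coding genes the shares were 26.1%, 23.2% and 23.8% in control and 20.2%, 24.8% and 24.5% under knockdown, so the RAB values lay above every value of the other genes. Giving each gene with a peak the same weight, the mean share was 47.1% over RAB genes and 32.1% over the others. Of the 34 RAB genes with peaks in all 6 libraries, 24 (70.6%) had a start peak in each of them, against 50.4% of the other genes with peaks in all 6.

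The number of RAB start peaks was 32, 36 and 34 in control and 36, 30 and 35 under knockdown, with means of 34.0 ± 2.00 and 33.7 ± 3.21 (SD, n = 3 each). The share differed by -5.20 percentage points between knockdown and control, and the groups overlapped. Near the gene end lay 12.3%, 8.14% and 11.7% of RAB peaks in control and 7.07%, 7.14% and 6.02% under knockdown. Here the groups did not overlap, but the RAB end peaks behind these shares were 9, 7 and 9 in control and 7, 6 and 5 under knockdown, whose numbers did overlap. In the other genes the share near the end was between 6.86% and 7.76%.

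**Figure D2:**
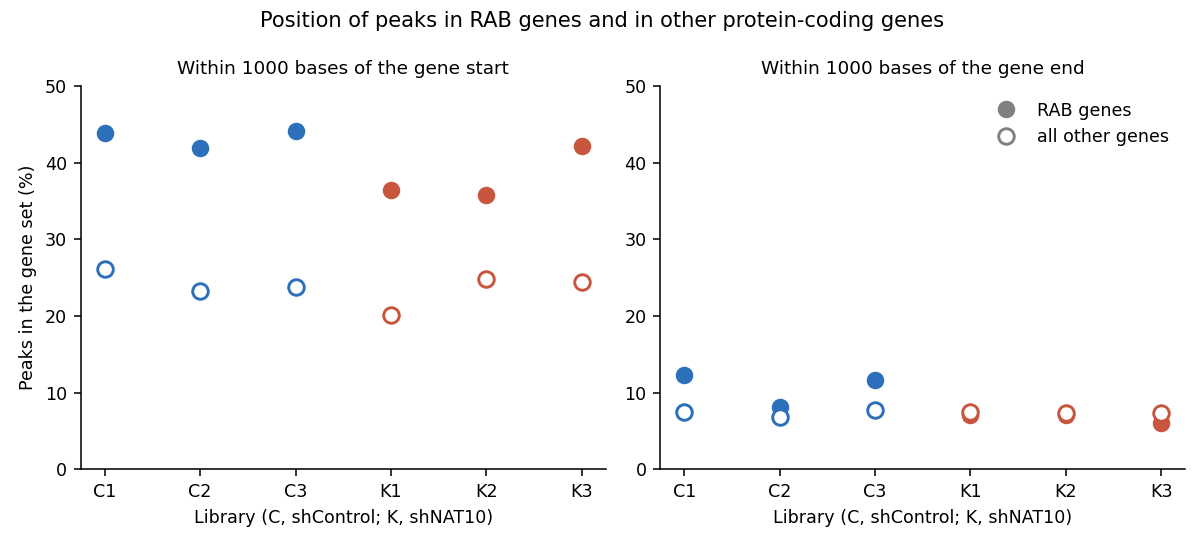
Share of peaks (y axis, percent) whose midpoint lay within 1000 bases of the gene start (left) or gene end (right) in each library (x axis, C control, K knockdown). Filled circles are RAB genes and open circles all other protein-coding genes, and near the start every filled circle, from 35.7% to 44.2%, lies above every open one, from 20.2% to 26.1%.

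Among the roles, the share of peaks near the start, over the 6 libraries together, was 72.2% in GTPases of late endosomes and lysosomes, 63.9% in those of early endosomes, 66.7% in those with other roles, 42.9% in the RAB40 adaptors, 42.5% in those of the ER and Golgi, 36.5% in those of recycling endosomes and 20.0% in those of exocytosis. It was 46.6% over all GTPases and 25.3% over the regulators. These shares rest on between 21 and 356 peaks, many of them the same region seen in several libraries, and were not tested against each other. They leave out the start peaks of RAB8A, RAB17, RAB1B and RAB41, whose midpoints lay before the gene span. Counting those would raise the shares of exocytosis, recycling endosomes, and the ER and Golgi.

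Start regions recurred more often and scored higher than the rest of the RAB regions. Of 45 RAB regions near a start, 24 (53.3%) had a peak in all 6 libraries, against 15 of 103 elsewhere (14.6%). Over all genes these shares were 40.9% and 17.5%. The median score percentile of RAB start peaks was between 64.3 and 79.5 per library, and of other RAB peaks between 24.5 and 45.3. In other genes the medians were between 60.5 and 69.7 near the start and between 43.5 and 45.7 elsewhere. RAB start peaks were also longer, with medians between 313 and 391.5 bases per library against 135 to 219 bases for other RAB peaks. The part of peak length in the scores was not tested.

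Of the 39 RAB regions with a peak in all 6 libraries, those with the highest median score percentiles were start peaks of RAB7A, at 94.4, and of RAB2A, RAB5IF, RAB20 and RAB21, at 93.6 each. These lie in the range of peaks tied at a score of 3100, which held 12.3% to 21.2% of RAB peaks per library (scores of 3100 or more) and 7.61% to 13.8% of the peaks of other genes, so their order has no meaning. The lowest of the 39 was a region of RAB11FIP4, at 30.8.

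Score ranks did not differ between the groups past the threshold in any RAB region. For the 9195 regions with a peak in all 6 libraries, ranks within each library were turned into normal scores and compared with limma, and 0 regions (0%) had an adjusted p under 0.05, with 622 at an unadjusted p under 0.05 and a smallest adjusted p of 0.522. Of the 39 RAB regions 0 passed and 4 had an unadjusted p under 0.05. Normal scores were higher in knockdown in 17 of the 39, with a median difference, knockdown minus control, of -0.04, and of -0.04 over all regions too. Without the regions at the highest score in any library, whose sign depends on the number of ties, they were higher in 10 of 19, with a median of 0.01, so these tallies give no direction.

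The smallest p among RAB regions belonged to a region inside RAB11FIP1, a RAB11 and RAB14 binding protein of recycling endosomes. Its score percentiles were 36.0, 40.2 and 36.8 in control and 81.0, 61.1 and 57.8 under knockdown, and the groups did not overlap. How many of all tested regions lay without overlap was not counted, here and for the regions below. The difference in normal score was 0.93 (SE 0.32, limma adjusted p = 0.724).

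The start region of RAB6A had percentiles of 74.8, 74.6 and 67.7 in control and 92.7, 82.9 and 82.7 under knockdown, also without overlap, a difference of 0.63 (SE 0.25, limma adjusted p = 0.724). A region of RAB7A 69148 bases from the start had 78.2, 81.6 and 78.7 in control and 92.7, 85.0 and 85.4 under knockdown, a difference of 0.40 (SE 0.22, limma adjusted p = 0.734). None of these 3 differences passed the adjusted threshold. In RAB6A and in this RAB7A region the 92.7 of knockdown replicate 1 is the place of peaks tied at a score of 3100. It is set by how many peaks tie in that library.

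In the other direction, the start region of RAB5B had percentiles of 87.3, 94.8 and 62.3 in control and 83.5, 7.22 and 50.5 under knockdown, so the groups overlapped, with a difference of -1.47 (SE 0.61, limma adjusted p = 0.724). The start region of RAB8B had 81.7, 69.9 and 57.4 in control and 58.5, 30.01 and 57.6 under knockdown, a difference of -0.84 (SE 0.38, limma adjusted p = 0.731). The start region of RAB7A had 96.0, 94.8 and 99.9 in control and 92.7, 94.0 and 93.2 under knockdown, a difference of -0.71 (SE 0.33, limma adjusted p = 0.734). These are peaks at the tied score of 3100 or above it, where the percentile is set by how many peaks tie in a library, so the sign of this difference was not read as a direction.

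**Figure D3:**
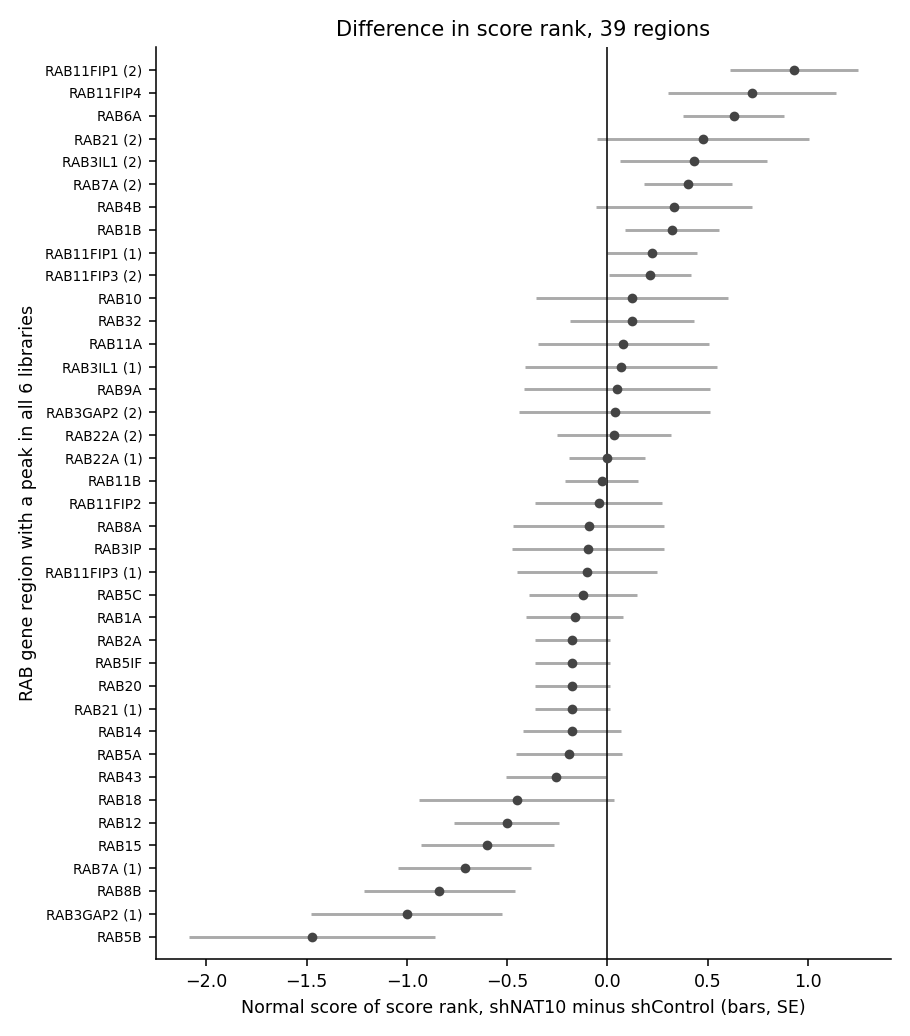
Difference in normal score of the score rank, shNAT10 minus shControl (x axis, points with SE bars), for the 39 RAB regions with a peak in all 6 libraries (y axis, gene of each region, numbered where a gene has several). Differences run from -1.47 in RAB5B to 0.93 in RAB11FIP1, 17 of the 39 lie above 0, and 0 passed the adjusted threshold.

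The genes that switch RAB proteins on and off or act with them were described from a list of 139 genes outside the 74. Peaks were found in 120 of them (86.3%) and in all 6 libraries in 70 (50.4%). Of 36 GTPase-activating proteins 35 had a peak and 23 had peaks in all 6 libraries, of 51 exchange factors 42 and 22, of 44 effectors and RAB kinases 39 and 24, and of 8 prenylation and recycling factors 4 and 1. None of the 139 genes split the groups completely, 3 libraries against 0, against 0.7% of all genes with a peak. A difference of at least 2 libraries was seen in 6 of the 120 with more control and 5 with more knockdown libraries, against 4.17% and 3.5% of all genes with a peak. Near the start lay 20.3% of the peaks of these genes, below the 40.4% of the RAB genes over the 6 libraries together. With equal weight for each gene with a peak, the shares were 25.2% and 47.1%. Of genes with peaks in all 6 libraries, 55.7% and 70.6% had a start peak in each. The median span was 63666 bases in these genes and 35176 bases in the RAB genes, and its part in the difference was not tested. By role, the share of peaks near the start was 20.0% in GTPase-activating proteins, 19.3% in exchange factors and 20.4% in effectors and RAB kinases. In prenylation and recycling factors it was 62.5%, from 16 peaks, which is above the 40.4% of the RAB genes.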

How the data were processed

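Peak lists of 6 immunoprecipitated acRIP-seq libraries were used. The authors deposited 1 list per library, limited to mRNA peaks named as by MACS, with position, strand and a score that starts at 50 and often equals 3100. The scale of the deposited score, the aligner, the caller's settings and its version are not given in the sources used here; the labels name GRCh38. The score served only for ranks. Of peaks in 1 gene with a tabulated strand, 0.599% lay on the other strand (0 of 337 in RAB genes). Gene spans and start windows came from RefSeq GRCh38.p14 tables. The strand came from the start windows for 59 members and from the peaks in the span for 12, and 3 had none (RAB33A, RAB38 and RAB44). The 2 sources matched in 9292 of 9360 genes.

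The members and lists were chosen with earlier results of these data known. Named were RAB genes or regions that met the criteria, those with peak numbers that did not overlap or a difference of 2 libraries, the 5 with the most peaks (the last place tied), those without a peak and the 3 smallest p per direction; others were named after their values were seen. P-values measure only the spread between these libraries. Gene peak numbers were compared by an exact permutation test and score ranks by limma 3.58.1 (R 4.3.3), Benjamini-Hochberg adjusted over all genes or regions. Python 3.11.15, pandas 2.3.3 and scipy 1.17.1 were used. Merging, calling and the limma step were tested on simulated data. Alternatives were score filters, strand and overlap rules, other windows, members or call rules, and each library left out; no exon annotation was used here.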

Additional observations from a re-analysis of the deposited data

How the results depend on the processing

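The 34 RAB genes with peaks in all 6 libraries were 29 to 35 under the other settings and 34 to 37 with a library left out. They were 18 when the 50% of peaks with the highest scores were kept. Among fewer members they were 26, both of the 64 GTPases (40.6%) and of the 59 members with a tabulated strand. The difference in RAB genes with a peak turned to -1 with equal peak numbers, and ran from -0.833 (without knockdown replicate 1) to 3.17 (without knockdown replicate 2) with 1 library left out; it was -0.667 without control replicate 1. The 1 RAB gene called was 0 with the highest scores or equal peak numbers and 8 at a difference of 2 libraries; leaving out 1 library gave 1 to 5, with 2 each without control replicate 2, control replicate 3 or knockdown replicate 2 and 5 without knockdown replicate 1, RAB31 among them each time. The 2 RAB regions were 0 with equal peak numbers, 1 with members whose strand is tabulated and 17 at a difference of 2 libraries; with the highest scores the count was again 2, in RAB11FIP1 and RAB43 and in knockdown. Leaving out 1 library gave 2 to 10 regions. There were 4 without control replicate 1 or 3, 5 without knockdown replicate 2 and 10 without knockdown replicate 1. The same counts over all genes and regions were not made under the score filters or with a library left out. These RAB counts therefore have no share to stand beside and are not read as a trait of RAB genes. The difference in RAB peaks stayed between 3.33 and 10.7 under the other settings and between 4.83 (without knockdown replicate 1) and 13.7 with a library left out. The mean share near the start, 40.7%, was 61.1% with the highest scores, 47.1% over GTPases only and 34.3% within 500 bases, and 40.0% to 41.7% with a library left out. The share near the end, 8.73%, was 3.06% within 500 bases and 8.01% to 9.27% with a library left out. No RAB region passed the score rank test under any setting run. In RAB31 the mean difference in peak numbers, -1, was -0.667 with equal peak numbers and 0 with the highest scores, and in RAB40C, 1.33, it was 0.667 with the highest scores. The causes of these changes were not tested.

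Same-numbered libraries did not deviate together (correlations over regions of 0.00654, -0.0496 and 0.0633), so the replicate numbers were not taken as pairs. With the replicate block the differences within numbers were 8, -3 and -2 RAB genes, a mean of 1.00, and 26, -2 and 6 RAB peaks, a mean of 10.0, and 0 RAB regions passed the score rank test. Counting any overlap with the gene span, tabulated strands only and leaving out RAB6C, RAB6D, RAB40A and RAB40AL were added after the data were seen. Without counts, how depth limits the absence of a peak is unknown.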
